A study of Homo sapiens with 12 samples.

Results

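RNA-seq read counts of 7 genes were examined in neural progenitor cells (NPCs) and their differentiated progeny: LIN28A, LIN28B, HMGA1, HMGA2, IGF2BP1, IGF2BP2 and IGF2BP3. They were taken by name out of 58302 genes in the count files, selected on their read counts in all 6 groups of samples, and all 7 passed the filter on low counts that left 13454 genes for testing. Because those same counts chose them, their levels, differences and calls are given as a description, without p-values.

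The cells came from H1, a human embryonic stem cell (ESC) line. WT cells had no deletion, and dKO cells were H1 cells lacking the catalytic domains of both H3K27 demethylases, UTX (KDM6A) and JMJD3 (KDM6B). The 6 groups, with 2 samples apiece, were NPCs of both genotypes grown as neural spheres with bFGF and EGF at passage 2, the same at passage 4, and passage 2 NPCs plated without FGF2 and EGF for 28 days (WT-D28 and dKO-D28). By the study's methods, the medium of this differentiation also held GDNF, BDNF and cAMP. The labels name passage 4 only, and passage 2 was taken from the study's text. In the dKO line UTX was removed from an H1 JMJD3-/- line, with drug-selected clones at each step, and the number of clones sequenced is not given in the sources used here. Nothing says that the 2 samples of a group came from separate cultures, so p-values measure only the spread between these samples, and with no batch in the labels a batch and a group cannot be told apart.

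LIN28A and LIN28B are RNA-binding proteins of early embryonic and fetal cells. They bind precursors of the let-7 microRNAs and block their maturation, and TUT4 and TUT7 then mark the bound precursors for decay. Mature let-7 in turn binds the mRNAs of both LIN28 genes, of the HMGA genes, which encode architectural chromatin proteins that bend AT-rich DNA, and of the IGF2BP genes, which encode RNA-binding proteins that protect and localize mRNAs such as that of IGF2. In the developing brain these genes are known for high levels in early progenitors and lower levels as development goes on. The series holds no fetal or adult tissue, so the usual name of fetal genes could not be checked against it.

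The let-7 family is shown here because all 7 genes are known for regulation by it. In RefSeq (GRCh38.p14), 9 mature 5p microRNAs of the family from 12 loci share a single seed. The 5 below are those whose host transcripts are described further on, printed 5′ to 3′ with the seed (bases 2 to 8) in capitals.
let-7a-5p: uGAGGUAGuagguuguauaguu
let-7b-5p: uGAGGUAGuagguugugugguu
let-7c-5p: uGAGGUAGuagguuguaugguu
let-7e-5p: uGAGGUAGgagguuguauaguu
let-7g-5p: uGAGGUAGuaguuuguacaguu

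The match to this seed, CTACCTC on the transcript strand, was searched in the 3′ untranslated region (UTR) of each gene's canonical GENCODE v44 transcript. A match followed by A, CTACCTCA, was called an 8mer and contains the shorter 7mer. All 7 genes held at least 1 match, 16 in total, of which 9 were 8mers. LIN28B, HMGA2 and IGF2BP1 held 4 each, and LIN28A, HMGA1, IGF2BP2 and IGF2BP3 held 1 each. HMGA1 was the member without an 8mer. Of 19538 protein-coding 3′ UTRs, 9.77% held a match, 3.75% an 8mer and 0.184% 3 or more matches. Long UTRs hold more, and among UTRs within 25% of the length of a member's own the share with a match ran from 8.65% (HMGA1) to 30.9% (IGF2BP1). A match is a description of letters, not a site shown to be bound. The match nearest the stop codon of each gene follows, in 22-base windows of GRCh38 on the transcript's strand, with the match in capitals.
LIN28A, chr1:26427349-26427370, + strand: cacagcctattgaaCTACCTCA
LIN28B, chr6:105078813-105078834, + strand: cccggttgcaaagtCTACCTCA
HMGA1, chr6:34245830-34245851, + strand: cctctgttcacaaaCTACCTCt
HMGA2, chr12:65963299-65963320, + strand: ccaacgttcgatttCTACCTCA
IGF2BP1, chr17:49051062-49051083, + strand: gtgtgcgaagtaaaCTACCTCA
IGF2BP2, chr3:185644220-185644241, - strand: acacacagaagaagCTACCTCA
IGF2BP3, chr7:23311795-23311816, - strand: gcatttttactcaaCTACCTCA

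HMGA2 had the match nearest to a stop codon, 21 bases after it, followed by LIN28B at 44 bases. HMGA2 also had the most matches per length, 1.33 per kb of its 2999-base UTR, against 0.306 per kb in LIN28A, the fewest.

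**Figure D1:**
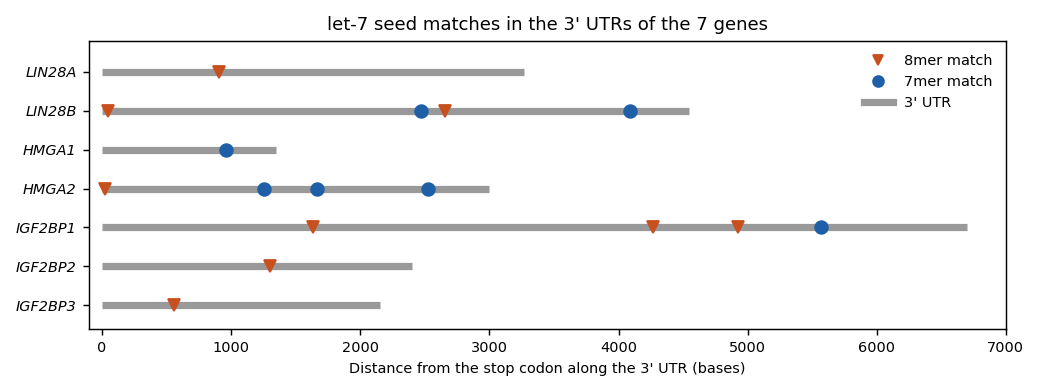
Positions of let-7 seed matches along the 3′ UTRs of the 7 genes. The x axis is the distance from the stop codon in bases, grey bars are the UTRs, triangles are 8mer and circles 7mer matches. LIN28B, HMGA2 and IGF2BP1 each carry 4 matches and the other genes 1.

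Totals ran from 756942 to 10601172 counts per sample, with the 4 passage 2 libraries lowest, at up to 1438807. Levels are given in CPM, read counts scaled to a common library size with TMM, on which 3 counts equal 0.297 to 3.86 CPM, for counting error only. KDM6A and KDM6B were still counted in dKO cells (27.3 to 58.5 CPM of KDM6A and 144 to 185 of KDM6B, against 43.6 to 60.4 and 115 to 202 in WT). Counts cover whole genes and not the deleted domains alone, and the source of these reads was not tested. By qRT-PCR, the study reports no detected expression of the deleted genes in its knock-out lines during neural differentiation. The 2 dKO-D28 samples stood apart from each other: their chi-square over genes, divided by its degrees of freedom, was 14, against 1.55 to 3.3 in the other groups, so results on dKO-D28 are given with and without each. Of 9 neural progenitor markers, all had counts in the WT groups and in dKO-D28, whereas HES5 had no count in dKO NPCs at either passage. HES5 was near the floor in WT NPCs too, with 2 and 2 counts at passage 2 and 0 and 2 at passage 4. A difference between genotypes in HES5 was therefore not detectable in NPCs. Of the pluripotent cell markers, POU5F1, NANOG and PRDM14 had no count in any sample.

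LIN28A (ENSG00000131914; GRCh38 chromosome 1, 26410817 to 26429728) started at passage 2 from 86.2 and 83.0 CPM in WT NPCs and 85.8 and 78.7 CPM in dKO NPCs. At passage 4 it had 0.987 and 0.506 CPM in WT but 30.9 and 33.3 CPM in dKO NPCs. At day 28 it had 0.828 and 0.595 CPM in WT-D28 and 31.8 and 79.1 CPM in dKO-D28. Genotypes therefore overlapped at passage 2 and lay far apart afterwards, with LIN28A near the counting floor in WT (5 counts in the 2 passage 4 libraries and 13 in the 2 WT-D28 libraries). The fold of the pooled counts, with its exact 95% counting interval, was 44.9 at passage 4 (19 to 139) and 82.9 at day 28 (48.1 to 157), dKO over WT. WT-D28 cells were 120-fold lower than WT NPCs at passage 2 by the same measure (68.5 to 230). Fitted log2 fold changes of LIN28A, given further on, depend with so few WT counts on the constant the fit adds. In bulk RNA, fewer cells that express a gene and less RNA per cell cannot be told apart.

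LIN28B (ENSG00000187772; chromosome 6, 104936616 to 105083332), the paralogue, started at passage 2 from 138 and 130 CPM in WT NPCs and 131 and 109 CPM in dKO NPCs. It fell to 5.92 and 7.08 CPM in WT NPCs at passage 4, against 87.9 and 94.5 CPM in dKO. WT-D28 cells had 14.1 and 12.8 CPM and dKO-D28 cells 102 and 144 CPM. Its lowest WT level was at passage 4 and not at day 28, whereas LIN28A was under 1 CPM in both. The antisense gene LIN28B-AS1, which overlaps its 5′ end, had at most 16 counts in a sample.

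HMGA1 (ENSG00000137309; chromosome 6, 34236873 to 34246231) started at passage 2 from 649 and 611 CPM in WT NPCs and 514 and 518 CPM in dKO NPCs. WT NPCs at passage 4 had 112 and 122 CPM and dKO NPCs 430 and 429 CPM. WT-D28 cells had 136 and 137 CPM, and dKO-D28 cells had 356 and 791 CPM. The dKO-D28 samples thus lay on either side of both dKO passage 2 samples and above both WT-D28 samples. Its 8 annotated pseudogenes could share reads with it, the most counted being HMGA1P2 at 1.41% of the HMGA1 counts.

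HMGA2 (ENSG00000149948; chromosome 12, 65824460 to 65966291) started at passage 2 from 388 and 387 CPM in WT NPCs and 537 and 603 CPM in dKO NPCs, and was the member whose dKO samples already lay above WT there. By passage 4 WT was down to 38.2 and 46.8 CPM while dKO stood at 632 and 696 CPM. The day 28 values were 6.39 and 6.05 CPM in WT-D28 and 379 and 528 CPM in dKO-D28. In contrast to LIN28B, HMGA2 was lower in WT at day 28 than at passage 4, and among the 7 genes it alone was higher in both dKO samples at passage 4 than in both at passage 2.

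IGF2BP1 (ENSG00000159217; chromosome 17, 48997385 to 49056145) started at passage 2 from 486 and 522 CPM in WT NPCs and 542 and 495 CPM in dKO NPCs. At passage 4 WT NPCs were down to 40.2 and 58.2 CPM while dKO NPCs were at 413 and 447 CPM, and at day 28 the values were 84.5 and 76.9 CPM in WT-D28 against 334 and 564 CPM in dKO-D28. Of the 3 IGF2BP genes it had the largest fold between WT NPCs at passage 2 and at passage 4, 10.2.

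IGF2BP2 (ENSG00000073792; chromosome 3, 185643130 to 185825042) is the family member that many adult tissues also express. At passage 2 it was at 251 and 263 CPM in WT NPCs and 283 and 227 CPM in dKO NPCs. WT NPCs at passage 4 had 84.3 and 98.9 CPM and WT-D28 cells 83.1 and 77.1 CPM, while dKO NPCs at passage 4 had 196 and 192 CPM and dKO-D28 cells 188 and 230 CPM. The WT-D28 values lay just below those of WT NPCs at passage 4, and all WT values at both stages lay below the dKO values.

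IGF2BP3 (ENSG00000136231; chromosome 7, 23310209 to 23470491) started at passage 2 from 226 and 228 CPM in WT NPCs and 205 and 195 CPM in dKO NPCs. At passage 4 it was at 83.9 and 92.1 CPM in WT NPCs and at 157 and 178 CPM in dKO NPCs. WT-D28 cells had 34.2 and 33.8 CPM and dKO-D28 cells 128 and 189 CPM. Like HMGA2, it was lower in WT at day 28 than at passage 4. The gene MALSU1 overlaps its 3′ end on the opposite strand, with 78 to 379 counts per sample, and since no strand setting is given in the sources used here, reads from that overlap cannot be told apart.

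**Figure D2:**
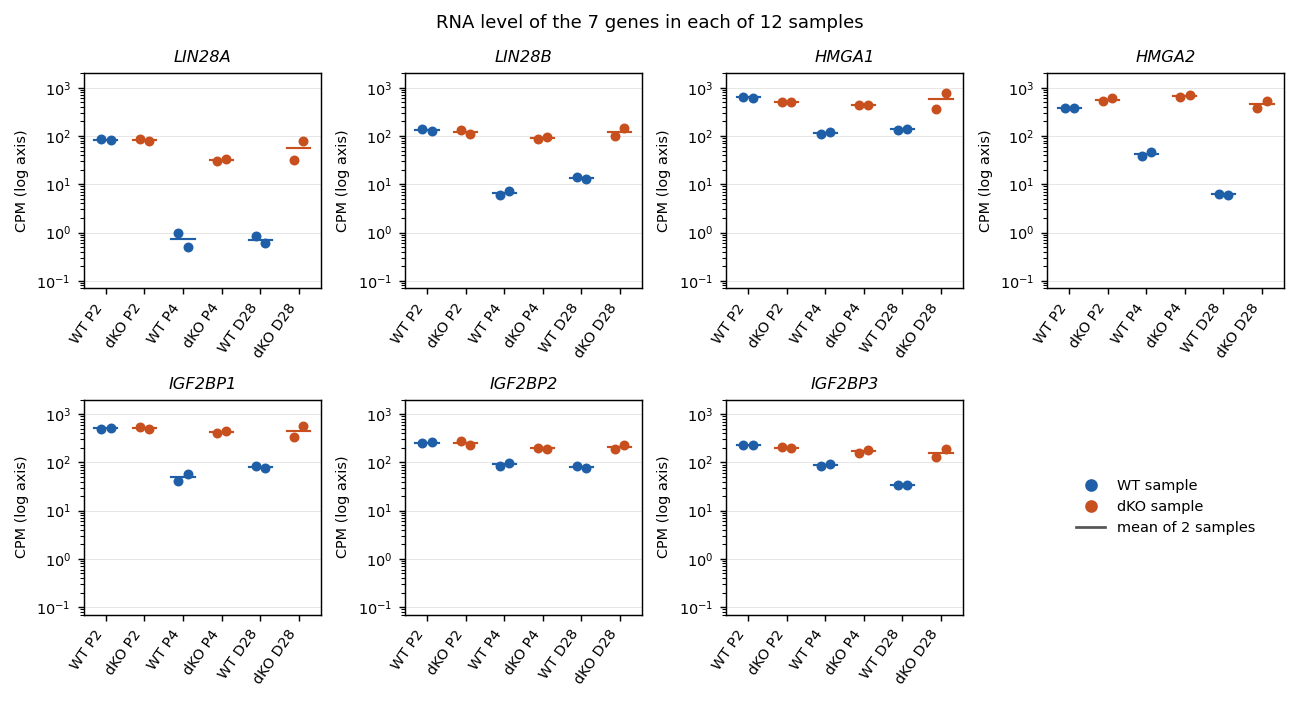
Levels of the 7 genes in the 12 samples, in CPM on a log axis, by group (P2, passage 2; P4, passage 4; D28, day 28). Points are samples, WT in blue and dKO in orange, and lines are means of 2 samples; WT P4 and WT D28 samples lie below all dKO samples for every gene.

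The comparison of dKO with WT NPCs at passage 2 addresses what loss of both demethylases changed before the cells were grown on or differentiated. None of the 7 genes was called (unadjusted p below 0.05 and fold change above 2, the study's thresholds, in edgeR's quasi-likelihood test), where 4.43% of all tested genes were. Log2 fold changes ran from -0.29 (SE 0.32) for HMGA1 to 0.56 (SE 0.14) for HMGA2, with a median of -0.04 against 0.004 over all tested genes. HMGA2 lay higher in both dKO samples (24.8% of all tested genes did), HMGA1 and IGF2BP3 lay lower in both (23.6%), and the groups overlapped for the other 4.

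By passage 4, dKO NPCs were above WT NPCs for all 7 genes without overlap (39.9% of all tested genes lay higher without overlap). The call counted 6 of the 7 as higher, against 11.1% of all tested genes, and none as lower. HMGA2 had a log2 fold change of 3.96 (SE 0.16), LIN28B 3.79 (SE 0.21), IGF2BP1 3.11 (SE 0.25) and HMGA1 1.87 (SE 0.32). IGF2BP2, at 1.08 (SE 0.13), lay just inside the fold threshold, and IGF2BP3, at 0.93 (SE 0.15), just outside it. Both sit close enough for 1 library to decide: without WT-NPC-P4 replicate 1 IGF2BP2 was at 0.97, and without dKO-NPC-P4 replicate 1 IGF2BP3 was at 1.01.

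At day 28, dKO-D28 was above WT-D28 for all 7 genes without overlap (38.1% of all tested genes), and all 7 were called higher (12.4% of all tested genes). The median log2 fold change was 2.48, against 0.003 over all tested genes. LIN28A stood at 6.26 (SE 0.50) and HMGA2 at 6.18 (SE 0.18), well above LIN28B at 3.20 (SE 0.17), and IGF2BP2 was lowest at 1.38 (SE 0.13). All 7 genes were higher in dKO-D28 sample 2 than in sample 1, from 1.22-fold for IGF2BP2 to 2.22-fold for HMGA1 and 2.49-fold for LIN28A, whereas the median ratio of all tested genes was 0.998 and the middle 80% of genes lay between 0.649 and 1.41. With sample 1 left out HMGA1 had a log2 fold change of 2.55 and LIN28A 6.77, and with sample 2 left out 1.38 and 5.44. All 7 genes were called higher with either sample left out.

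All 7 genes were lower once WT cells had differentiated. WT-D28 lay below WT NPCs at passage 2 without overlap in each of them (36.4% of all tested genes), and all 7 were called lower (11.5% of all tested genes). The log2 fold change was -6.85 (SE 0.54) for LIN28A, -5.96 (SE 0.19) for HMGA2, -3.31 (SE 0.18) for LIN28B, -2.74 (SE 0.16) for IGF2BP3, -2.65 (SE 0.23) for IGF2BP1, -2.21 (SE 0.32) for HMGA1 and -1.68 (SE 0.14) for IGF2BP2. In dKO cells none of the 7 was called over the same step (7.15% of all tested genes), with log2 fold changes between -0.55 (SE 0.34) for LIN28A and 0.15 (SE 0.31) for HMGA1. HMGA2 and IGF2BP3 were lower in dKO-D28 than in dKO NPCs without overlap (23.1% of all tested genes) and the other 5 overlapped. Without dKO-D28 sample 2, LIN28A was called lower at -1.37, and without sample 1 it was at -0.05. The difference between the genotypes in this step was 6.30 (SE 0.66) on the log2 scale for LIN28A, 5.63 (SE 0.23) for HMGA2 and 1.40 (SE 0.19) for IGF2BP2, and it was called in all 7 genes (12% of all tested genes in this direction).

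The step from passage 2 to passage 4 gave much the same picture with the genes in another order. All 7 were lower in WT NPCs at passage 4 without overlap (33.8% of all tested genes) and called (9.49% of all tested genes). LIN28A, at -6.82 (SE 0.65), was followed by LIN28B at -4.34 (SE 0.23), IGF2BP1 at -3.35 (SE 0.25), HMGA2 at -3.18 (SE 0.16), HMGA1 at -2.43 (SE 0.33), IGF2BP2 at -1.49 (SE 0.14) and IGF2BP3 at -1.37 (SE 0.16). In dKO NPCs 6 genes were lower at passage 4 without overlap (32.1% of all tested genes) and HMGA2 was higher (32.3%), but LIN28A alone, at -1.35 (SE 0.35), was called (lower in 5.22% of all tested genes). The difference between genotypes in this step was called in all 7 (9.72% of all tested genes in this direction), from 1.09 (SE 0.19) for IGF2BP2 to 5.46 (SE 0.82) for LIN28A. These comparisons share their passage 2 samples, and WT-D28 and dKO-D28 samples enter several of them, so they are not separate evidence.

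**Figure D3:**
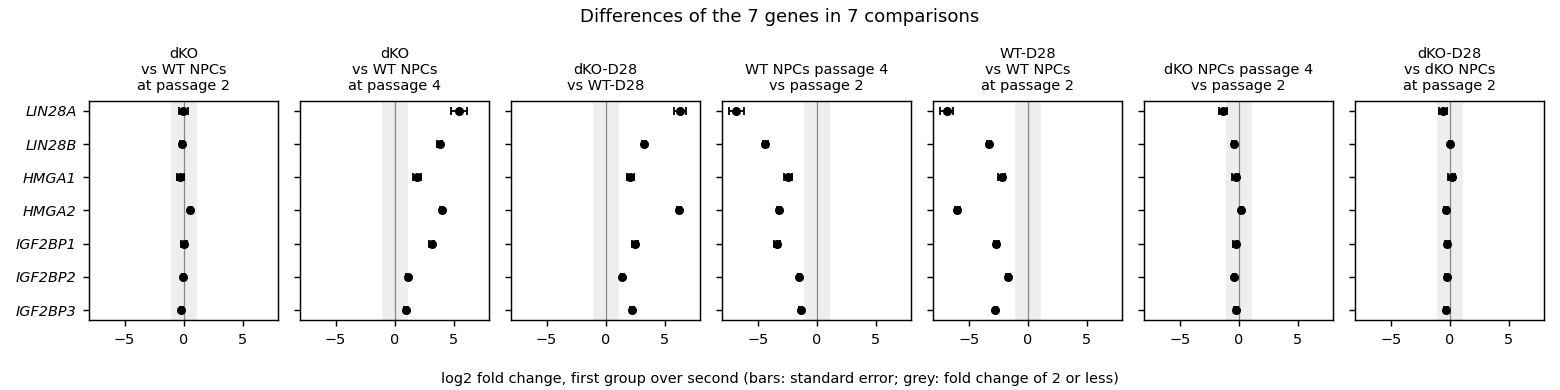
Log2 fold changes of the 7 genes in 7 comparisons, with the standard error as bars and the range of fold changes up to 2 in grey. The genes lie near 0 between genotypes at passage 2, to the right at passage 4 and day 28, and to the left where WT cells were passaged or differentiated.

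Levels of different genes were compared per kb of the canonical transcript. HMGA1 was highest in every group, from 60.9 CPM per kb in WT NPCs at passage 4 to 328 in WT NPCs at passage 2, and LIN28A had the lowest mean in every group, although it overlapped LIN28B in dKO NPCs at passage 2 and in dKO-D28. HMGA2 came next to HMGA1 in 4 groups, WT and dKO NPCs at passage 2 (94.2 and 138 CPM per kb), dKO NPCs at passage 4 (161) and dKO-D28 (110), but dropped to rank 4 in WT NPCs at passage 4 (10.3) and rank 6 in WT-D28 (1.51). IGF2BP2 and IGF2BP1, which overlapped at passage 2 in WT and differed by less than their spread, were at 60 and 57.3 CPM per kb there and at 18.7 and 9.18, without overlap, in WT-D28. Several ranks depend on the length used. For HMGA2 the exons of all its transcripts together have 15070 bases against 4117 in the canonical transcript, and on the longer measure it came at rank 5 in WT NPCs at passage 2. On that measure IGF2BP1 (52.3 CPM per kb) also came above IGF2BP2 (48.2) in WT NPCs at passage 2, and LIN28A (20.7) above LIN28B (20.2) in dKO NPCs at passage 2.

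Across the 12 samples the log2 CPM of the 7 genes moved together, with Pearson's r of 0.819 to 0.994 over the 21 pairs (median 0.956). These samples fall into a high and a low set, so r is a description and has no p. Many other genes followed a member as closely as fellow members did. By r with LIN28B, HMGA2 ranked 565 and IGF2BP3 1022 among 13453 genes. The nearest genes of all tested were sought for each member. IGF2BP1 was nearest to LIN28B and the reverse (r = 0.994, n = 12 samples), and STK26, a serine/threonine kinase, was among the 3 nearest to both (r = 0.990). TCF7L1, a transcription factor of the WNT pathway, was nearest to LIN28A (r = 0.988), SLC1A5, a glutamine transporter, to HMGA1 (r = 0.985), PPP2R1B, a scaffold subunit of protein phosphatase 2A, to HMGA2 (r = 0.993), RBPMS2 to IGF2BP2 (r = 0.988) and OSBPL3 to IGF2BP3 (r = 0.986). COL2A1, the fibrillar collagen of cartilage and early neuroepithelium, was among the 3 nearest to HMGA2 (r = 0.990), with 675 and 734 CPM in WT NPCs at passage 2, 6.39 and 8.13 CPM in WT-D28 and 729 and 582 CPM in dKO-D28.

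Markers of several cell types differed between the same groups, but not all in the direction of the 7 genes. Sums of the 9 neural progenitor markers peaked in WT NPCs at passage 4 (7975 to 7983 CPM), where the 7 genes were low. In dKO NPCs there they were 5715 to 5750. FABP7 carried this WT peak, with 1856 and 1694 CPM against 127 and 109 in WT NPCs at passage 2. VIM, SOX2 and SOX9 also had higher WT means at passage 4 than at passage 2. NES (702 and 764 CPM against 1379 and 1410), SOX1, PAX6, NOTCH1 and HES5 had lower ones. VIM was the largest part of the sum in every group. Passage 2 sums were 6775 to 6852 for WT, below the 7471 to 7859 for dKO. By day 28 the sums spanned 4939 to 4969 for WT-D28 against 3950 to 4815 for dKO-D28. PAX6 went the other way, with 11.7 and 11.5 CPM in WT-D28 against 187 and 351 in dKO-D28. SOX9 and NOTCH1 also had higher means in dKO-D28, and the rest of the list lower ones. The summed level of the 12 pluripotent cell markers was 218 to 237 CPM in WT and 149 to 157 CPM in dKO NPCs at passage 2, 23.5 to 24 in WT and 93.2 to 93.3 in dKO NPCs at passage 4, and 19.3 to 20.3 in WT-D28 against 169 to 171 in dKO-D28. Between 4 and 9 of the 12 had a count in a group, and most of the sum came from SALL4 and DNMT3B. The 8 markers of dividing cells summed to 468 and 487 CPM in WT-D28 and 1588 and 2044 CPM in dKO-D28, but at passage 4 to 1615 and 1779 CPM in WT NPCs against 1232 and 1259 CPM in dKO. These passage 4 sums were carried by MKI67 (523 and 639 CPM in WT, 272 and 286 in dKO) and TOP2A (517 and 615 in WT, 375 and 404 in dKO), while 4 of the 8, MCM2, PCNA, CCNB1 and AURKB, had the higher mean in dKO there. The 10 neuron markers summed to 4985 and 5614 CPM in WT NPCs at passage 4, 4464 and 4470 in WT-D28 and 665 to 1523 CPM in the other groups. The 7 astrocyte markers summed to 1989 and 2202 CPM in WT NPCs at passage 4, 412 and 414 in WT-D28 and at most 134 elsewhere. Most of these WT sums came from SLC1A3 (1755 and 1917 CPM at passage 4, 261 and 263 in WT-D28) and SLC1A2 (181 and 239, 117 and 110). In WT NPCs at passage 4, GFAP had 21.4 and 23.3 CPM and AQP4 4.61 and 5.06 CPM. Summed, the 8 mesenchymal markers were highest in dKO NPCs at passage 4 (1715 and 1737 CPM, against 156 to 1062 elsewhere). Most of that sum came from COL1A1 (504 and 518 CPM), COL1A2 (795 and 791) and COL3A1 (351 and 348). PDGFRB had its highest mean in WT-D28, DCN in WT NPCs at passage 4, and COL1A1, LUM and PRRX1 in dKO NPCs at passage 2. The 7 neural crest markers summed to 120 CPM in dKO-D28 sample 2 and 30.8 in sample 1, against 3.17 to 61.1 elsewhere. In sample 2 most came from TFAP2B (47.5 CPM), TFAP2A (31.8) and PAX3 (30.8), while SOX10 had 2 counts and FOXD3 none. The part of these cell types in the members' levels was not tested.

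Transcripts that carry let-7 hairpins were read next, since mature microRNAs are too short for mRNA libraries and were not measured, and the 12 hairpin genes had at most 4 counts in a sample. Of 9 annotated hosts, 6 were tested. MIR100HG, the host of 1 let-7a hairpin, was at 37.3 and 60.2 CPM in WT NPCs and 62.9 and 79.4 CPM in dKO NPCs at passage 2. At passage 4 it was at 164 and 183 CPM in WT NPCs against 63.9 and 63.3 CPM in dKO NPCs, and at day 28 at 202 and 222 CPM in WT-D28 against 111 and 41.6 CPM in dKO-D28. MIR100HG was thus high where the 7 genes were low, and in dKO-D28 it was lower in sample 2, which had more of all 7. It rose in WT-D28 over passage 2 (log2 fold change 2.06, SE 0.48, edgeR quasi-likelihood p adjusted by Benjamini-Hochberg = 0.0105) and was lower in dKO than in WT at passage 4 (-1.45, SE 0.40, adjusted p = 0.0201) and at day 28 (-1.49, SE 0.38, adjusted p = 0.0135) in the same edgeR test. Its difference between genotypes in differentiation was -1.98, with an edgeR adjusted p of 0.0655.

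MIR99AHG, the host of let-7c, was at 9 and 10.3 CPM in WT NPCs and 14.8 and 13.2 CPM in dKO NPCs at passage 2. The passage 4 values were 34.9 and 38 CPM in WT against 12.5 and 13.5 CPM in dKO, and the day 28 values 28.5 and 23.7 CPM in WT-D28 against 16.2 and 7.42 CPM in dKO-D28. It rose in WT cells at day 28 (log2 fold change 1.41, SE 0.36, edgeR adjusted p = 0.00447) and at passage 4 (1.89, SE 0.36, edgeR adjusted p = 0.000625). In dKO cells neither step was called, and the difference between genotypes was -1.68 in differentiation and -2.0 in passaging (edgeR adjusted p = 0.0198 and 0.00997). MIRLET7BHG, the host of let-7b and a let-7a hairpin, was below the filter: it had 4 and 5 counts in the WT NPC samples at passage 4, 4 and 5 in WT-D28 and 0 in every other library. A count of 0 allows up to 3.86 CPM in the shallowest passage 2 library and 0.57 to 0.725 CPM in the dKO libraries at passage 4 and day 28, so a difference at this level was not detectable at passage 2 or day 28.

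The other hosts were mixed. WDR82, a protein-coding gene whose locus holds let-7g, was also lower in dKO, with 183 to 216 CPM at passage 4 and day 28 against 316 to 357 CPM in WT, a fold under 2 (edgeR adjusted p = 2.39e-05 at passage 4 and 2.01e-05 at day 28). SPACA6, whose locus holds let-7e, went the other way and was higher in dKO than in WT NPCs at passage 4 (log2 fold change 2.61, SE 0.31, edgeR adjusted p = 3.67e-06), with 27.7 and 24.9 CPM against 3.95 and 4.55. HUWE1, which holds let-7f-2 and miR-98, stayed at 472 to 695 CPM in all 12 samples and was called in no comparison, nor was MIRLET7IHG. MIRLET7A1HG and an unnamed gene at let-7i had too few counts to be tested. A host transcript can be spliced and stable independently of the hairpin, so these values are not let-7 levels.

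**Figure D4:**
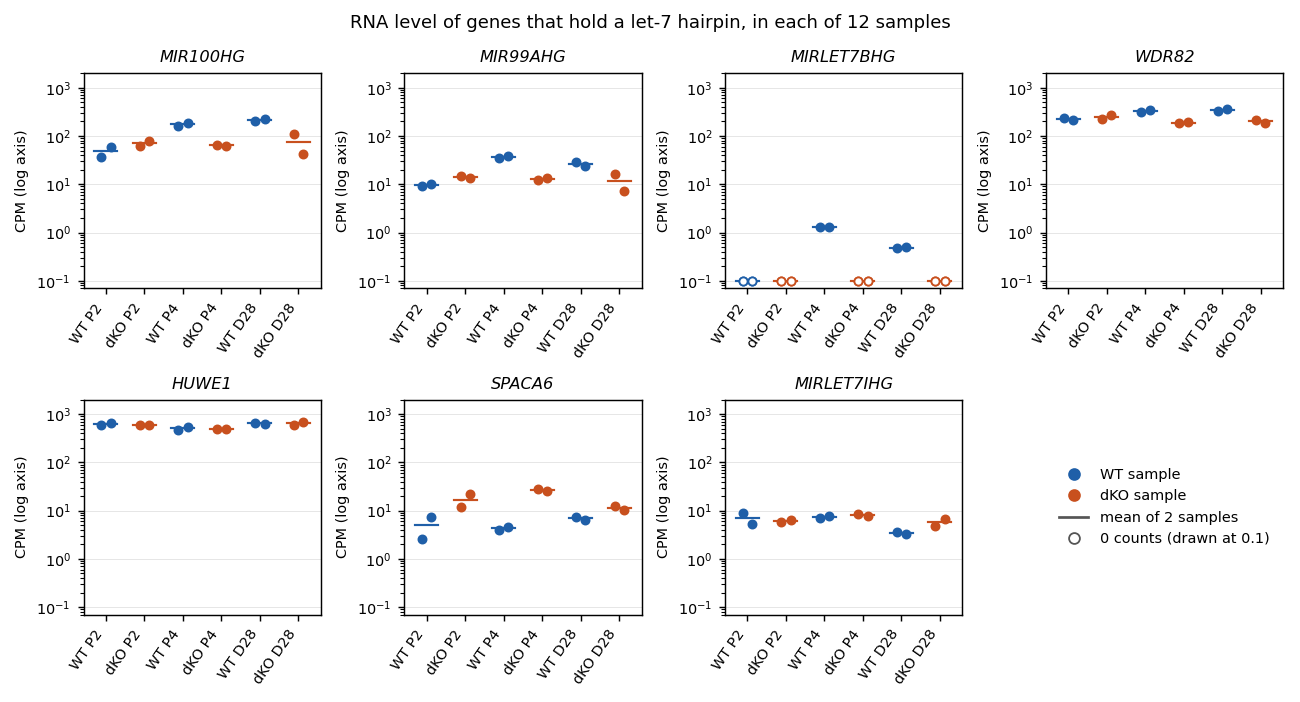
Levels of 7 genes whose loci hold let-7 hairpins, in CPM on a log axis, for the 12 samples. Points are samples, WT in blue and dKO in orange, lines are means of 2 samples and open points mark 0 counts; MIR100HG and MIR99AHG are highest in WT P4 and WT D28.

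The rest of the pathway was counted over 6 lists from general knowledge, the 7 members left out, with 109 of 123 genes tested. At passage 2 the genotypes differed little: 3 of the 109 genes were called higher in dKO and 3 lower (2.75% each, against 2.59% and 1.84% of all tested genes). The calls were the let-7 targets CDK6 (higher, log2 fold change 1.04, edgeR adjusted p = 0.0185) and IGDCC3 (lower, -1.42, edgeR adjusted p = 0.0968), CDKN2B and NFIB (higher) and POU3F2 and NR2F1 (lower). By passage 4, 24 were higher and 17 lower in dKO (11.1% and 11.2% of all tested genes), and at day 28 30 were higher and 9 lower (12.4% and 11.7%). In WT cells 8 rose and 33 fell by day 28 (12.9% and 11.5% of all tested genes) and 10 rose and 25 fell by passage 4 (10.3% and 9.49%). In dKO cells 3 rose and 8 fell by day 28 (4.01% and 3.14% of all tested genes) and 0 rose and 9 fell by passage 4 (4.61% and 5.22%). The difference between genotypes was called positive in 27 and negative in 7 for differentiation (12% and 11.1% of all tested genes), and in 21 and 14 for passaging (9.72% and 9.57%).

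mRNAs known as let-7 targets, other than the members, were higher in dKO in 13 of 34 tested at passage 4 and 17 of 34 at day 28 (38.2% and 50%, against 11.1% and 12.4% of all tested genes), and lower in 3 and 1. In WT cells 16 of 34 fell by day 28 and 15 by passage 4, and in dKO cells 2 and 3. Of the 36 listed genes, 28 had a seed match in the 3′ UTR used here. TRIM71, a ubiquitin ligase and RNA-binding protein that is the classical let-7 target, fell in WT from 122 and 99.9 CPM to 12.2 and 4.30 CPM by passage 4 and 12.2 and 10.9 CPM by day 28, whereas dKO samples stayed between 78 and 95.8 CPM. Its log2 fold change, dKO over WT, was 3.35 (SE 0.26, edgeR adjusted p = 7.87e-08) at passage 4 and 3.03 (SE 0.21, edgeR adjusted p = 1.89e-08) at day 28. PRTG, an immunoglobulin superfamily receptor of early neuroepithelium, was higher in dKO at passage 4 by 2.99 (SE 0.20, edgeR adjusted p = 1.96e-08), and its relative IGDCC3 was higher at day 28 by 3.27 (SE 0.34, edgeR adjusted p = 8.61e-05). GATM, an enzyme of creatine synthesis, was lower in dKO at passage 4, at -1.52 (SE 0.25, edgeR adjusted p = 8.89e-05), as did the cyclin CCND2 at -1.22 (SE 0.14, edgeR adjusted p = 3.02e-06). CDK6, a listed target and cell cycle kinase, fell in dKO cells by day 28 (-1.89, SE 0.20, edgeR adjusted p = 5.05e-05) and was at -0.02 in WT, so the targets did not all go with the members.

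The machinery that makes let-7 was counted in the same way. Of 20 genes for let-7 maturation and LIN28 cofactors, all tested, none was called between genotypes at passage 2, 2 were higher in dKO at passage 4 (TRIM71 and TARBP2, the DICER1 partner, at 1.25, SE 0.27, edgeR adjusted p = 0.00184) and 1 at day 28 (TRIM71). These were 10% and 5% of the list, against 11.1% and 12.4% of all tested genes. TUT7 was called in the difference between genotypes in differentiation (1.01, SE 0.22, edgeR adjusted p = 0.00299). MSI1, a neural RNA-binding protein reported to work with LIN28, fell in WT cells at passage 4 (-1.74, SE 0.11, edgeR adjusted p = 1.06e-08) and day 28 (-1.25, SE 0.11, edgeR adjusted p = 1.36e-07).

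In the IGF axis, 6 of 18 tested genes were higher and 1 lower in dKO NPCs at passage 4, and 4 and 0 at day 28 (33.3% and 22.2% higher, against 11.1% and 12.4% of all tested genes). IGF2, the fetal growth factor whose mRNA gave the IGF2BP proteins their name, dropped in WT from 100 and 112 CPM at passage 2 to 0.987 and 2.28 CPM at passage 4 and 2.48 and 2.28 CPM at day 28. In dKO samples it had 132 and 131 CPM at passage 2, 90.9 and 95 at passage 4 and 194 and 461 at day 28, and so lay above the WT samples of the same stage at each stage. The log2 fold change, dKO over WT, was 5.74 (SE 0.66, edgeR adjusted p = 0.00023) at passage 4, where WT had 3 and 9 counts, and 7.09 (SE 0.50, edgeR adjusted p = 1e-05) at day 28. PAPPA, a protease that frees IGF from its binding proteins, was higher in dKO by 4.79 (SE 0.26, edgeR adjusted p = 7.08e-10) and 3.41 (SE 0.22, edgeR adjusted p = 3.73e-09). IGFBPL1 was lower in dKO at passage 4 (-2.53, SE 0.13, edgeR adjusted p = 3.86e-10). Of mRNAs known to be bound by IGF2BP proteins, 3 of 16 were higher and 2 lower in dKO at passage 4, and 3 and 1 at day 28 (18.8% higher at both, against 11.1% and 12.4% of all tested genes). The median log2 fold change of these mRNAs was -0.22 at passage 4 and 0.20 at day 28. MYC was among the higher (1.35, SE 0.26, edgeR adjusted p = 0.000528 at passage 4) and CD44, a hyaluronan receptor, among the lower (-2.36, SE 0.19, edgeR adjusted p = 4.68e-08).

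Genes tied to HMGA proteins, in chromatin and the cell cycle, were called higher in dKO in 4 of 17 at passage 4 and 8 of 17 at day 28, and lower in none (23.5% and 47.1% higher, against 11.1% and 12.4% of all tested genes). The median log2 fold change over the list was -0.28 at passage 4 and 0.98 at day 28, against 0.020 and 0.003 over all tested genes, so at passage 4 the median and the calls differed in sign. PLAG1, a zinc finger activator of IGF2, had a log2 fold change of 3.64 (SE 0.17, edgeR adjusted p = 1.44e-10) at day 28, and SNAI2, a regulator of epithelial to mesenchymal transition, 3.41 (SE 0.47, edgeR adjusted p = 1.36e-05). CDKN2B, a cell cycle inhibitor of the INK4 locus, was higher in dKO NPCs at passage 4, with 54.7 and 56.1 CPM against 2.96 and 3.80 CPM in WT, a log2 fold change of 4.0 (SE 0.37, edgeR adjusted p = 8.6e-07).

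The list of temporal and gliogenic progenitor factors, which is not limited to glia-forming genes, went mostly the other way. In dKO, 11 of 13 tested were lower at passage 4 and 7 of 13 at day 28, and none was higher (84.6% and 53.8%, against 11.2% and 11.7% of all tested genes). NFIX, a nuclear factor I protein, had at most 3.70 CPM in the passage 2 samples, 149 and 166 CPM in WT passage 4 NPCs and 29.4 and 30.7 CPM in WT-D28, but 2.08 and 2.17 CPM and 1.67 and 0.19 CPM in the matching dKO samples. NFIB was lower in dKO at passage 4 by -4.83 (SE 0.21, edgeR adjusted p = 1.96e-10) and NFIX by -6.19 (SE 0.32, edgeR adjusted p = 9.64e-10). AQP4, the water channel of astrocytes, was lower in dKO-D28 at -3.03 (SE 0.32, edgeR adjusted p = 1.14e-06). In WT cells 6 of the 13 rose by passage 4 and none fell, while by day 28 5 rose and 3 fell, among them POU3F2 and POU3F3. These lists were chosen with earlier results of the same samples known and share genes with each other and with the astrocyte markers.

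**Figure D5:**
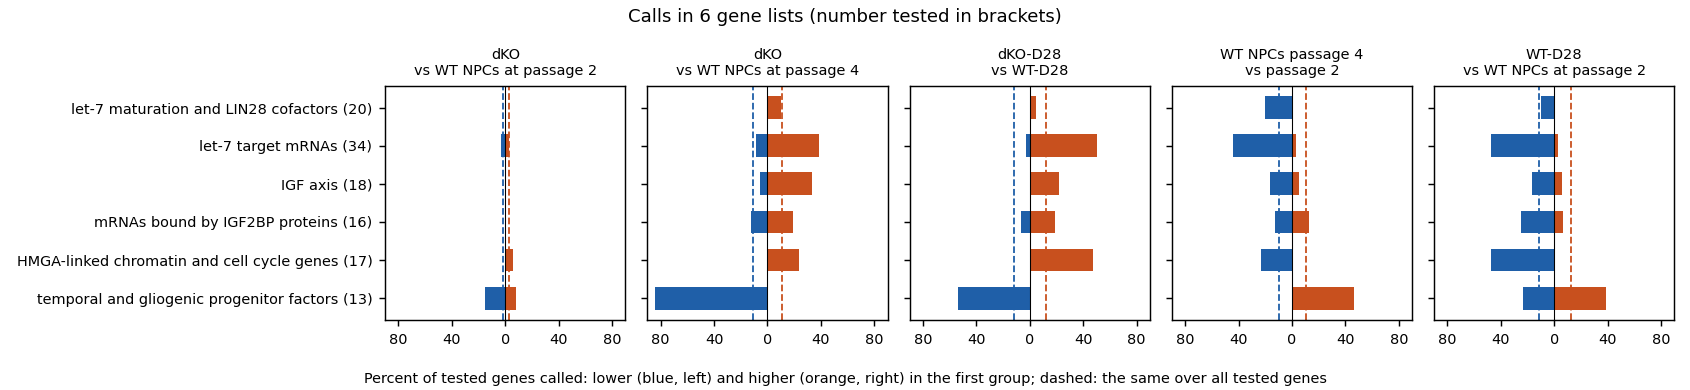
Percent of tested genes called in 6 lists in 5 comparisons, lower to the left in blue and higher to the right in orange, with dashed lines at the percent over all tested genes and the number tested in brackets. Let-7 targets extend to the right for dKO over WT at passage 4 and day 28 (38.2% and 50%), and the temporal and gliogenic factors to the left (84.6% and 53.8%).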

How the data were processed

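RNA from 12 samples of H1-derived cells was sequenced, 2 in each of 6 groups taken from the labels. The authors built TruSeq libraries, aligned reads to hg38 with HISAT2 2.0.4, used SAMtools 1.3.1 and HTSeq 0.6.0, and deposited raw counts per Ensembl gene, before their own GC and length normalization and DESeq 1.18.1 test. The annotation release and strand setting are not given in the sources used here. GENCODE v44 gave symbols for 98.7% of gene IDs.

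From the counts, genes averaging 20 counts or more over the 12 samples were fitted in R 4.3.3 with edgeR 4.0.16 (TMM, quasi-likelihood, robust), in 1 model of 6 group means, with Benjamini-Hochberg adjustment over the 13454 genes. The SE is the log2 fold change over the square root of F. With 2 against 2 samples an exact two-sided permutation p cannot go below 0.333. The fit was tested on simulated data. Intervals and floors cover counting error only.

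Named were the 7 members, KDM6A and KDM6B, let-7 hosts, genes overlapping members and their pseudogenes, the 3 genes most correlated with each member, and up to 2 called genes per list, comparison and direction with the largest fold. The marker genes were given by summed CPM. Single genes of the pluripotent, neural progenitor, dividing cell, astrocyte, mesenchymal and neural crest lists were singled out after their values were seen. Members and lists were chosen with earlier results of these data known. Alternatives were DESeq2 1.42.0, adjusted p, other filters, a GC and length correction, only the groups compared, a replicate block, and leaving out each sample.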

Additional observations from a re-analysis of the deposited data

Results flagged for a closer look

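The difference between genotypes in how the 7 genes moved was large, all in the direction of a smaller fall in dKO cells. The 7 genes were picked with these results known, so the values are given without a test. For differentiation (day 28 against passage 2, dKO minus WT, log2) they were 6.30 for LIN28A, 3.36 for LIN28B, 2.36 for HMGA1, 5.63 for HMGA2, 2.44 for IGF2BP1, 1.40 for IGF2BP2 and 2.41 for IGF2BP3. For passaging (passage 4 against passage 2) they were 5.46 for LIN28A, 3.94 for LIN28B, 2.16 for HMGA1, 3.40 for HMGA2, 3.08 for IGF2BP1, 1.09 for IGF2BP2 and 1.11 for IGF2BP3. HMGA2 was thus further apart in differentiation than in passaging and LIN28B the reverse, a contrast that was not tested.

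The let-7c host MIR99AHG differed between genotypes in the opposite direction, by -1.68 in differentiation and -2.0 in passaging (edgeR adjusted p = 0.0198 and 0.00997), with a rise in both WT samples of each later group over both WT samples at passage 2.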

How the results depend on the processing

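Of 1188 refitted member log2 fold changes, 0 of those called changed sign, while values near 0 could. Counts of called members moved by over 1.5 times in 2 of 180 refits: without dKO-D28 replicate 2, LIN28A was called in dKO-D28 against dKO NPCs (range 0 to 1 over left-out samples, 0 in the full fit) and under a minimum of 10 counts in each library LIN28A was no longer tested and 0 members were called in dKO NPCs at passage 4 against passage 2. Leaving out single samples gave 5 to 7 members at passage 4 (6 in the full fit) and 6 to 7 for the difference in passaging, where IGF2BP2 dropped to 0.99 without WT-NPC-P4 replicate 1 and 0.94 without dKO-NPC replicate 2. A correction for GC content and length called 7 at passage 4, with IGF2BP3 at 1.15.

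Counts of called pathway genes moved by over 1.5 times in 7 of 180 refits. With adjusted p below 0.05 they were 3 at passage 2 (6 in the full fit) and 7 in dKO-D28 against dKO NPCs (11). Under the minimum of 10 counts in each library, which tests fewer genes, they were 27 in WT-D28 against WT NPCs (41), 5 in dKO-D28 against dKO NPCs (11) and 23 for the difference in passaging (35). With at least 1 count in any sample, 14 were called in dKO NPCs at passage 4 against passage 2 (9), and there left-out samples gave 8 to 14, the highest without dKO-NPC replicate 2. Between the genotypes at day 28, left-out samples gave 34 to 45 called pathway genes (39 in the full fit). The causes of the other moves were not tested.

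Deviations of same-numbered samples were little correlated (-0.055 to 0.182, mean 0.018, over 15 pairs of groups). The highest value was between WT and dKO NPCs at passage 4. No pairing by number was seen, but a low correlation in libraries with much counting error cannot exclude one. The replicate block gave 6 members and 41 pathway genes at passage 4 and 7 and 38 at day 28, against 6 and 41, and 7 and 39, without it.

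The low totals at passage 2 limit what can be seen there, and LIN28A in WT rests on 5 and 13 counts.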

Other observations

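A set of all genes with a let-7 seed match in the 3′ UTR, defined after the data were examined was counted. At day 28, 13.9% of the 1364 tested genes with a match were higher in dKO and 12.1% lower, against 12.9% and 11.6% of the 11798 tested genes with a 3′ UTR. Genes with an 8mer were higher in 15.9% and lower in 10% of 529, and their median log2 fold change was 0.152 against 0.019. At passage 4, 11.1% of genes with a match were higher in dKO and 13.4% lower, against 11% and 11.2%. Their median log2 fold change was -0.031, against 0.024. The passage 4 shares for an 8mer were 13% and 11.3%, with a median of 0.047. The set with any match and the 8mer set thus differed in direction there. These counts leave out the 7 members.

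Single pluripotent cell markers, named after their values were seen, differed between the genotypes at day 28. SALL4, a zinc finger factor of stem cells, was at 150 and 128 CPM in WT NPCs and 81.4 and 96.1 CPM in dKO NPCs at passage 2, and at 2.01 and 2.48 CPM in WT-D28 against 52.8 and 86.7 CPM in dKO-D28. L1TD1, an RNA-binding protein known to interact with LIN28 in stem cells, had no count in WT NPCs at passage 4 or WT-D28, where 3 counts would be 0.297 to 0.987 CPM, and 33.4 and 20.2 CPM in dKO-D28. DPPA4 had 42.4 and 30.1 CPM in WT NPCs at passage 2, at most 0.118 CPM in WT-D28 and 13.9 and 5.89 CPM in dKO-D28.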
